A study of Mus musculus with 6 samples.

Results

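The intracellular mediators of the TGF-β superfamily and the best known genes that answer to them were examined in the E13.5 mouse OFT, as 10 genes: *Smad1* to *Smad7*, *Id1*, *Id2* and *Id3*. They were taken by symbol, as the rows of the deposited count table whose Ensembl identifier belongs to a listed gene. All 10 were present among the 28777 genes of the table, and all 10 were among the 28157 genes with more than 5 reads over the libraries, which were tested. Bulk RNA-Seq counts of 6 libraries were used, 3 labelled *Notch1*+/-*; Nos3*-/- (mutant) and 3 labelled wildtype, all from embryonic cardiac OFT at E13.5. Each library pooled 3 OFTs of genotyped embryos, so a value is an average over animals and over all cell types of the dissected tissue. Both mutant alleles are germline, so no cell type was targeted. Total counts were 44387490, 43329291 and 34729103 in wildtype replicates 1, 2 and 3, and 38640033, 35551470 and 36917298 in mutant replicates 1, 2 and 3. The numbers 2 and 3 of the wildtype libraries follow the sample titles, and the sample descriptions give them the other way round.

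BMP receptors phosphorylate Smad1 and Smad5, TGF-β and activin receptors phosphorylate Smad2 and Smad3, and both pairs act in the nucleus together with Smad4, while the inhibitory Smads, Smad6 and Smad7, are induced by the signal and dampen it. Id1, Id2 and Id3 are helix-loop-helix proteins without a DNA-binding domain, direct targets of BMP signaling that sequester E proteins from their basic partners. In the OFT, BMP and TGF-β signals drive the formation of cushion mesenchyme and septation, and *Smad6* is expressed in developing valves.

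The targeted genes were read first, because they check the labels. Values are CPM, counts relative to library size after TMM scaling, and each log2 fold change sets the mutant label against the wildtype label. *Notch1* had 74.3, 88.2 and 83.6 CPM in wildtype replicates 1, 2 and 3 and 155, 161 and 139 CPM in mutant replicates 1, 2 and 3. It was higher in every library labelled mutant, against the label of a *Notch1*+/- genotype (log2 fold change 0.89, adjusted p = 0.0313, edgeR's quasi-likelihood F-test, Benjamini-Hochberg adjusted). Its direction held in all 17 alternative settings (0.71 to 0.99), while the call was lost with the myocardial covariate described below and in 5 of 6 fits with 1 library left out, all but that without wildtype replicate 1 (0.82). *Nos3* had 31.8, 47.2 and 48.1 CPM under the wildtype label and between 20.4 and 22.1 CPM in all 3 under the mutant label, lower in every library labelled mutant (−0.98, adjusted p = 0.128, edgeR's test). DESeq2's Wald test called *Nos3* (adjusted p = 9.42e-06), and edgeR called it after a correction for GC content and gene length (−1.08, adjusted p = 0.0433) and without wildtype replicate 1 (−1.15, adjusted p = 0.00176). It was lower in all 17 alternatives (−1.15 to −0.87), with an adjusted p of up to 0.576 when mutant replicate 1 was left out. On their exons *Notch1* and *Nos3* each overlap antisense genes, of which those in the table had 113 reads beside 27149 for *Notch1*, and 674 and 533 reads beside 7409 for *Nos3*, and whether the counting used the strand is not given in the sources used here. The counts are per whole gene, so reads from the deleted part of an allele are not seen apart. Because *Notch1* goes against its label, groups are named by their labels throughout, and each direction below is that of the labels.

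Of the 10 Smad and Id genes, 9 had a log2 fold change above 0, as had 51.2% of all genes tested. In the main edgeR fit the inhibitory Smads together with *Id1* and *Id3* had log2 fold changes between 0.49 and 0.65, against 0.24 or less in the other 6 genes. *Smad6* was at 0.40 with GC content and length corrected. With scaling by library size only *Smad7* was at 0.75 and *Smad5* at 0.35. Among genes averaging 10 CPM or more, 3.2% had a log2 fold change as high as that of *Id3* or higher. At a threshold of 0.05 on the adjusted p (edgeR's quasi-likelihood F-test, Benjamini-Hochberg adjusted), 0 of the 10 were called, beside 0.0213% of all genes tested. At an unadjusted p under 0.05 there were 5 of 10 genes, *Smad5*, *Smad6*, *Smad7*, *Id1* and *Id3*, all higher, beside 16.1% of all genes in either direction and 8.23% higher. DESeq2's Wald test called 2 of 10, *Smad6* and *Smad7*, beside 2.64% of all genes in either direction and 1.46% higher. The libraries of the 2 labels did not overlap for 5 of 10 genes, *Smad1*, *Smad5*, *Smad6*, *Smad7* and *Id1*, all higher under the mutant label, and 10.7% of all genes were apart in that direction, or 9.95% of those averaging 10 CPM or more. No Smad or Id gene was apart in the other direction (0 genes), beside 8.94% of all genes. The median log2 fold change of the 10 genes was 0.22, and that of all genes tested was 0.011. With the myocardial covariate these medians were 0.12 and −0.015.

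These counts changed when wildtype replicate 1 was left out. Without it, edgeR called 3 of the 10 genes, *Smad5* (0.33, adjusted p = 0.0374), *Smad6* (0.68, adjusted p = 0.0307) and *Smad7* (0.77, adjusted p = 0.0218, edgeR's quasi-likelihood F-test, Benjamini-Hochberg adjusted), while 9.45% of all genes were called in the same fit, 4.15% of all genes as higher. At an unadjusted p under 0.05 that fit had 8 of the 10, beside 26.3% of all genes. Without any 1 of the other 5 libraries 0 of the 10 were called by edgeR, with 2 to 5 of them at an unadjusted p under 0.05, beside 7.66% to 17.8% of all genes in the same fits. With all libraries and a replicate block on the title numbers edgeR called 4 of the 10, *Smad6*, *Smad7*, *Id1* and *Id3*, beside 5.6% of all genes. A block on the description numbers gave 0 of the 10, beside 0.295% of all genes. The libraries were not treated as paired, for the reasons given below.

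**Figure D1:**
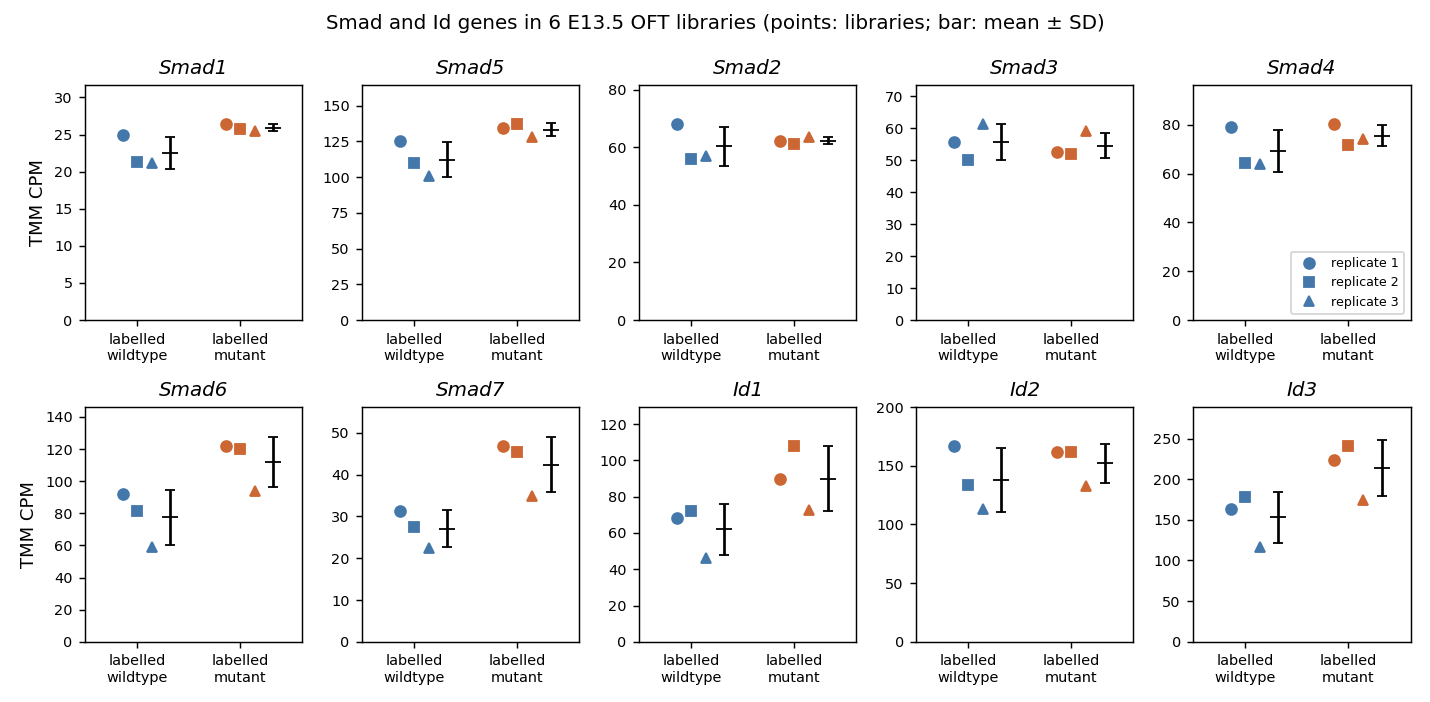
TMM CPM (vertical axes, linear from 0) of the 10 Smad and Id genes in the 6 libraries, with 1 point per library, marker shapes for replicates 1, 2 and 3, and the mean ± SD of each label in black. For *Smad6* and *Smad7* every library labelled mutant lies above every library labelled wildtype, and replicate 3 is the lowest of its label.

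The BMP-activated Smads, the first step inside the cell, both had labels that did not overlap. *Smad1* had 25.0, 21.3 and 21.1 CPM in wildtype replicates 1, 2 and 3 and 26.4, 25.7 and 25.5 CPM in mutant replicates 1, 2 and 3. Wildtype replicate 1 lay just under the mutant libraries and the other wildtype libraries lay lower, so the labels did not overlap. Its log2 fold change was 0.20 (95% interval −0.03 to 0.43, adjusted p = 0.364, edgeR's quasi-likelihood F-test, Benjamini-Hochberg adjusted). *Smad5*, its close relative, had 125, 110 and 101 CPM under the wildtype label and 134, 137 and 128 CPM under the mutant label. Again all libraries labelled mutant were above all labelled wildtype, with wildtype replicate 1 nearest to them. Its log2 fold change was 0.24 (standard error 0.10, 95% interval 0.02 to 0.47, adjusted p = 0.291, edgeR's test). The mutant libraries were close together for both genes, with a highest-to-lowest ratio of 1.04 for *Smad1* and 1.07 for *Smad5*.

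The TGF-β-activated Smads and the common Smad had overlapping labels and log2 fold changes of 0.13 or less. *Smad2* had 68.1, 56.1 and 56.9 CPM in wildtype replicates 1, 2 and 3 and 62.2, 61.3 and 63.7 CPM in mutant replicates 1, 2 and 3. Its highest library was wildtype replicate 1, and the mutant libraries fell inside the wildtype range. On the log2 scale the difference was 0.05 (95% interval −0.18 to 0.27, adjusted p = 0.857, edgeR's quasi-likelihood F-test, Benjamini-Hochberg adjusted). *Smad3* was the one gene of the 10 with a lower mean under the mutant label, with 55.7, 50.2 and 61.3 CPM against 52.7, 51.9 and 59.2 CPM. In each label replicate 3 held the highest *Smad3* value, unlike the inhibitory Smads and Ids, and the labels overlapped. On the log2 scale the difference was −0.03 (95% interval −0.26 to 0.20, adjusted p = 0.921, edgeR's test). Its sign turned in 4 of the alternatives, to 0.07 when libraries were scaled by their size only (median of all genes 0.114), 0.11 with the myocardial covariate described below, 0.04 when wildtype replicate 3 was left out and 0.01 when mutant replicate 2 was. *Smad4*, the partner of both pairs, had 79.1, 64.2 and 64.1 CPM under the wildtype label and 80.3, 71.9 and 74.4 CPM under the mutant label. Replicate 1 was the highest of each label, and the labels overlapped (0.13, 95% interval −0.11 to 0.37, adjusted p = 0.599, edgeR's test). For *Smad2*, *Smad3* and *Smad4* the intervals reach no further than 0.37 upward and −0.26 downward on the log2 scale.

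Both inhibitory Smads were higher in every library labelled mutant than in any labelled wildtype. *Smad6*, which preferentially restrains BMP signals, had 92.2, 81.2 and 58.8 CPM in wildtype replicates 1, 2 and 3 and 122, 120 and 94.0 CPM in mutant replicates 1, 2 and 3. The lowest library labelled mutant, replicate 3, was only just above the highest labelled wildtype, replicate 1, and wildtype replicate 3 stood well below the rest. Mean levels were 77.4 ± 17.0 CPM under the wildtype label and 112 ± 15.8 CPM under the mutant label (SD, n = 3 each). The log2 fold change of *Smad6* was 0.54 (standard error 0.16, 95% interval 0.18 to 0.89), and its adjusted p was 0.203 (edgeR's quasi-likelihood F-test, Benjamini-Hochberg adjusted). DESeq2's Wald test gave it an adjusted p = 0.0463, and over the 17 alternative settings its adjusted p ranged from 0.00431 to 0.876. The highest came with the myocardial covariate described below.

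*Smad7*, which restrains both branches, had 31.3, 27.4 and 22.5 CPM in wildtype replicates 1, 2 and 3 and 46.9, 45.5 and 34.9 CPM in mutant replicates 1, 2 and 3. The order of the libraries was the same as for *Smad6*, with mutant replicates 1 and 2 high and wildtype replicate 3 low, and the labels did not overlap. Mean levels were 27.1 ± 4.43 CPM and 42.4 ± 6.57 CPM under the wildtype and mutant labels (SD, n = 3 each), a 1.57-fold difference. Its log2 fold change was 0.65 (standard error 0.15, 95% interval 0.32 to 0.97, adjusted p = 0.181, edgeR's quasi-likelihood F-test, Benjamini-Hochberg adjusted). By DESeq2's Wald test *Smad7* had an adjusted p = 0.00894, and the alternative settings spanned 0.00125 to 0.693, the highest again with the myocardial covariate. Leaving out 1 library at a time gave log2 fold changes between 0.37 and 0.68 for *Smad6* and between 0.53 and 0.77 for *Smad7*. With the myocardial covariate described below *Smad6* was at 0.20 and *Smad7* at 0.35.

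Of the Id genes, *Id1* had labels that did not overlap, while those of *Id2* and *Id3* overlapped. *Id1* had 68.3, 72.1 and 46.0 CPM in wildtype replicates 1, 2 and 3 and 89.7, 108 and 72.4 CPM in mutant replicates 1, 2 and 3. Wildtype replicate 3 was the low library, and mutant replicate 3 only just exceeded wildtype replicate 2, so that the labels were barely apart. The log2 fold change of *Id1* was 0.53 (standard error 0.18, 95% interval 0.14 to 0.93, adjusted p = 0.228, edgeR's quasi-likelihood F-test, Benjamini-Hochberg adjusted). DESeq2's Wald test gave an adjusted p = 0.0735, and the alternatives ranged from 0.000829 to 0.938, the highest with the myocardial covariate.

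*Id3* had 163, 178 and 117 CPM under the wildtype label and 224, 241 and 175 CPM under the mutant label, replicates 1 to 3 in order. Mutant replicate 3 fell just under wildtype replicate 2, the only crossing of the labels for this gene, and wildtype replicate 3 was again the lowest. Mean levels were 153 ± 31.6 and 214 ± 34.3 CPM (SD, n = 3 each), a 1.40-fold difference. The log2 fold change of *Id3* was 0.49 (standard error 0.16, 95% interval 0.12 to 0.85, adjusted p = 0.229, edgeR's quasi-likelihood F-test, Benjamini-Hochberg adjusted). With DESeq2's Wald test its adjusted p was 0.0741, and the alternatives spanned 0.000807 to 0.931, the highest with the myocardial covariate. *Id2* had 167, 134 and 113 CPM under the wildtype label and 162, 162 and 133 CPM under the mutant label. Its highest library was wildtype replicate 1, and the labels overlapped (0.14, 95% interval −0.18 to 0.46, adjusted p = 0.665, edgeR's test). Leaving out 1 library at a time gave 0.36 to 0.67 for *Id1* and 0.33 to 0.61 for *Id3*, and *Id2* was at 0.02 without wildtype replicate 3 and 0.30 without wildtype replicate 1. *Id1* was at 0.11 and *Id3* at 0.13 with the myocardial covariate.

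**Figure D2:**
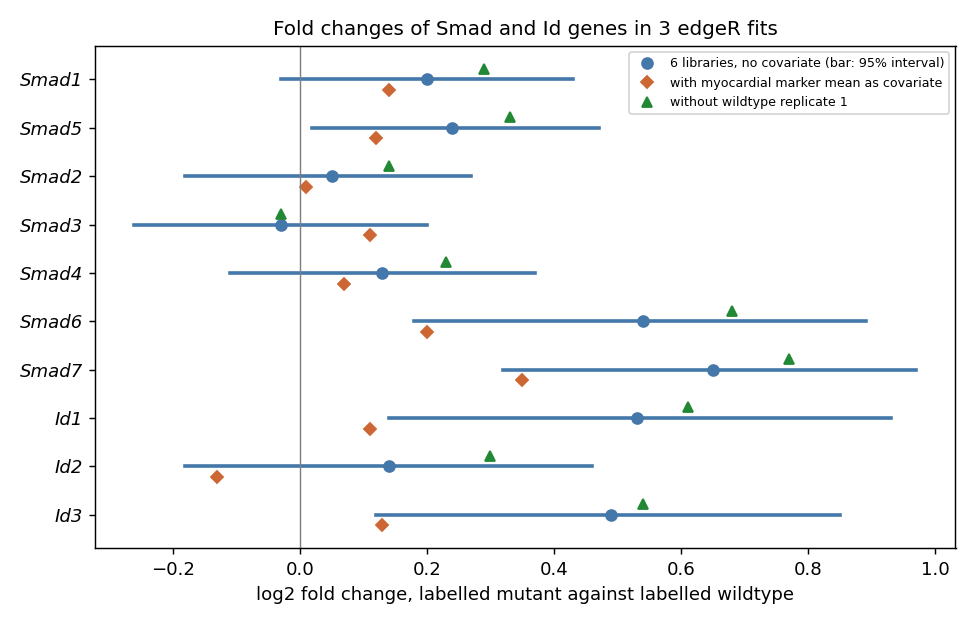
Log2 fold changes (horizontal axis) of the 10 Smad and Id genes from edgeR with all 6 libraries (circles, bars for the 95% interval), with the mean of the myocardial markers as a covariate (diamonds), and without wildtype replicate 1 (triangles). With the covariate *Smad7* stands at 0.35 and *Id1* at 0.11, and *Id2* and *Smad3* change side of 0.

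Levels of different genes were compared per length, as CPM per kb of the union of a gene's exons. Under the wildtype label *Id3* was highest (85.2 ± 17.7 CPM per kb), then *Id2* (56.6 ± 11.1) and *Id1* (53.5 ± 12.2, SD, n = 3 each). The ranges of *Id3* and *Id2* overlapped, as did those of *Id2* and *Id1*. All 3 Id genes lay above every Smad gene in every library. *Smad6* led the Smads at 24.1 ± 5.3 CPM per kb, overlapping *Smad4* at 18.6 ± 2.33, and *Smad5* followed at 15.1 ± 1.65, below the range of *Smad4*. *Smad3* had 10.1 ± 1.01 CPM per kb, *Smad2* 6.87 ± 0.766 and *Smad7* 5.99 ± 0.979, the latter pair with overlapping ranges, and *Smad1* was lowest at 3.59 ± 0.353. Among the BMP-activated Smads the level of *Smad5* per length was thus above that of *Smad1* in each library.

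Under the mutant label the order changed in 2 places. *Id1* (77.6 ± 15.4 CPM per kb) stood above *Id2* (62.5 ± 6.82) with overlapping ranges, and *Smad7* (9.39 ± 1.45) stood above *Smad2* (7.11 ± 0.137) with ranges that did not overlap. *Id3* was at 119 ± 19.1 CPM per kb, with its lowest library above the highest of *Id1*, and *Smad4* was at 20.3 ± 1.16 (SD, n = 3 each). *Smad6* lay between 29.3 and 38.1 CPM per kb, above all libraries of *Smad4*. *Smad7* at 9.39 overlapped *Smad3* at 9.85 ± 0.726. Whole reads behind these values ran from 685 for *Smad1* in wildtype replicate 3 to 9037 for *Id3* in mutant replicate 2.

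The genes lie apart in the mm10 genome except for a few neighbours. *Smad3* (ENSMUSG00000032402, chromosome 9, 63646767 to 63757994) and *Smad6* (ENSMUSG00000036867, chromosome 9, 63953076 to 64022059) are separated by 195 kb with 2 genes of the table between them, on the same strand. These neighbours had log2 fold changes of −0.03 for *Smad3* and 0.54 for *Smad6*. *Smad2* (ENSMUSG00000024563), *Smad4* (ENSMUSG00000024515) and *Smad7* (ENSMUSG00000025880) lie within 2.67 Mb on chromosome 18, and of these *Smad7* alone had labels that did not overlap. *Id1* (ENSMUSG00000042745, chromosome 2, 152736251 to 152737410) lies 126 Mb from *Notch1* on the same chromosome, and 0 of the 10 genes lie on the chromosome of *Nos3*. *Id2* (ENSMUSG00000020644) lies on chromosome 12 from 25093799 to 25097140 and *Id3* (ENSMUSG00000007872) on chromosome 4 from 136143497 to 136145755. *Smad1* (ENSMUSG00000031681) lies on chromosome 8 and *Smad5* (ENSMUSG00000021540) on chromosome 13. *Smad5* shares 100 exonic bases with a small noncoding gene, and the exons of the other 9 overlap no other annotated exon.

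The spread within a label differed among the genes. The highest library was 1.57 times the lowest for *Smad6* and for *Id1* under the wildtype label, 1.52 times for *Id3* and 1.48 times for *Id2*. The receptor-activated Smads and *Smad4* stayed within a ratio of 1.24 in either label. Replicate 3 was the lowest library of its label for *Smad1*, *Smad5*, *Smad6*, *Smad7*, *Id1*, *Id2* and *Id3*, in both labels.

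Patterns over the 6 libraries were compared by the root mean square difference of log2 CPM, each gene centred on its own mean, a description with no test. It is not scaled by a gene's own spread, so genes that vary little lie close to each other. By this measure the closest pair of the 10 genes was *Smad1* and *Smad5* (0.049), followed by *Smad1* and *Smad4* (0.055), *Id1* and *Id3* (0.061), *Smad2* and *Smad4* (0.063) and *Smad6* and *Smad7* (0.077). *Smad3* and *Id1* were the farthest apart (0.46). *Smad6* was nearer to *Id3* (0.101) and *Id1* (0.117) than to *Smad1* (0.25), and *Id2* was nearer to *Smad5* (0.109) than to *Id1* (0.254). Among 9779 protein-coding genes averaging 10 CPM or more, *Id3* was in place 3 by likeness to *Id1*, after *Mmp23* (0.048) and *Cacnb3* (0.051). For *Smad6* the nearest were *Evc* (0.04), *Asic1* (0.044) and *Fxyd6* (0.044), and *Smad7* was in place 29. *Smad5* was in place 84 by likeness to *Smad1*, and *Id2* in place 923 by likeness to *Id1*. As a share of these genes, 0.0205% lay closer to *Id1* than *Id3* did. That share was 0.286% for *Smad6* and *Smad7*, 0.849% for *Smad1* and *Smad5* and 27.5% for *Smad3* and *Smad2*. By this share *Id1* and *Id3* came before *Smad1* and *Smad5*.

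Ratios within a library need no scaling between libraries, and 5 were compared by two-sided exact permutation tests, whose smallest possible p with 3 libraries per label is 0.1. The log2 ratio of *Smad6* to *Smad7* per length was 2.05, 2.06 and 1.89 in wildtype replicates 1, 2 and 3 and 1.88, 1.90 and 1.93 in mutant replicates 1, 2 and 3. Wildtype replicates 1 and 2 lay above all mutant libraries and wildtype replicate 3 among them (difference −0.10, p = 0.3, exact permutation test), and the difference was −0.16 without wildtype replicate 3. The log2 ratio of *Id1* to *Id3* was −0.63, −0.67 and −0.72 under the wildtype label and −0.70, −0.53 and −0.65 under the mutant label (difference 0.05, p = 0.5, exact permutation test), and the difference ran from 0.00 to 0.08 with 1 library left out. *Smad6* relative to *Smad1* plus *Smad5* was higher under the mutant label by 0.31, with overlapping labels (p = 0.3, exact permutation test), and by 0.19 to 0.41 with 1 library left out. The 3 Id genes relative to *Smad1* plus *Smad5* differed by 0.18 (p = 0.4, exact permutation test), and by 0.07 without wildtype replicate 3 and 0.28 without mutant replicate 3. *Smad2* plus *Smad3* relative to *Smad1* plus *Smad5* was −0.23, −0.24 and 0.05 in the wildtype libraries and −0.42, −0.46 and −0.25 in the mutant libraries. That was the one ratio of the 5 without overlap, its highest mutant value lying just under its lowest wildtype value (difference −0.24, p = 0.1, exact permutation test), and leaving out wildtype replicate 3 gave −0.14, leaving out mutant replicate 3 −0.30. All 5 ratios had an adjusted p of 0.5 (exact permutation tests with Benjamini-Hochberg adjustment).

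Markers of the tissue's cell types were read beside these genes. The 10 myocardial markers, all detected, were lower under the mutant label in 10 of 10 (median log2 fold change −0.52, most abundant gene *Myh7*). edgeR called 0 of them, with 8 at an unadjusted p under 0.05 (16.1% of all genes), and DESeq2 called 4 (2.64% of all genes). Summed levels were 28200, 31600 and 42500 CPM in wildtype replicates 1, 2 and 3 and 22900, 18900 and 27900 CPM in mutant replicates 1, 2 and 3. Replicate 3 of each label, where *Smad1*, *Smad5*, *Smad6*, *Smad7* and the 3 Id genes were lowest, had the highest myocardial sum of its label. The 10 mesenchymal markers were higher in 10 of 10 (median 0.58, most abundant gene *Col3a1*, 0 called by edgeR, 7 at an unadjusted p under 0.05, 1 called by DESeq2), with sums of 8500, 5790 and 4340 CPM and 9250, 10100 and 7890 CPM in the same order. Their part in the differences of the Smad and Id genes was not tested, and in bulk RNA fewer cells of a type and less RNA per cell cannot be told apart. With the mean of the myocardial markers as a covariate, *Smad6* had a log2 fold change of 0.20, *Smad7* 0.35, *Id1* 0.11, *Id3* 0.13, *Smad1* 0.14, *Smad5* 0.12, *Smad4* 0.07 and *Smad2* 0.01, while *Id2* (−0.13) and *Smad3* (0.11) changed sign. Covariate and label cannot be fully told apart in that fit, because 10 of 10 myocardial markers were lower under the mutant label. None of the 10 genes was called in that fit (0 genes), beside 0.0178% of all genes. An unadjusted p under 0.05 was reached by 1 of the 10, beside 6.33% of all genes. The adjusted p of the 10 lay between 0.693 and 0.996 (edgeR's quasi-likelihood F-test, Benjamini-Hochberg adjusted).

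The endothelial markers, 9 genes, summed to 959, 1220 and 1270 CPM under the wildtype label and 1050, 1050 and 1150 CPM under the mutant label (median −0.05, most abundant gene *Cdh5*), and did not follow the order of libraries seen for *Smad6* or *Id1*. Blood markers, 9 of 9 lower under the mutant label (median −0.56, most abundant gene *Hba-a2*), summed to 5410, 11900 and 10200 CPM and 6220, 6160 and 6320 CPM. Among them edgeR called 0 and DESeq2 3, while 7 had an unadjusted p under 0.05 and 3 had labels that did not overlap. Liver markers, 6 genes led by *Afp*, summed to 1.82, 98.2 and 27.7 CPM and 3.15, 5.82 and 1.59 CPM, highest in wildtype replicates 2 and 3 (median −3.39, 6 of 6 lower in mean under the mutant label and at an unadjusted p under 0.05, 0 called by edgeR, 1 by DESeq2, labels overlapping for all 6). Of the 7 markers of vascular smooth muscle (median 0.08) 2 were higher and 2 lower in all libraries labelled mutant, each at an unadjusted p under 0.05, and DESeq2 called *Myh11* (1.04, adjusted p = 0.0141, DESeq2's Wald test). The 7 epicardial markers had a median of −0.20, the 6 macrophage −0.07, the 6 neuronal 0.35, and the neural crest and glia list, with 5 of 6 genes listed, 0.37. All 6 neuronal markers were higher in mean under the mutant label. DESeq2 called *Tubb3* of these, without overlap (1.29, adjusted p = 6.09e-05, DESeq2's Wald test). Of 6 endoderm markers 4 were tested (median −0.21), 10 immediate early genes had a median of 0.19 and 5 sex-linked genes 0.02. All 5 had overlapping labels, and the 4 Y-linked genes among them also had their lowest library of each label in replicate 3, with highest-to-lowest ratios of up to 2.16 under the wildtype label and from 3.21 to 6.15 under the mutant label. Of the 74 tested genes in these 11 lists edgeR called 0 and DESeq2 7, and 25 had an unadjusted p under 0.05. Over all genes edgeR called 0.0213% and DESeq2 2.64%, and 16.1% had an unadjusted p under 0.05.

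Upstream of the Smads, 0 of 7 BMP receptor genes and 0 of 6 TGF-β receptor and coreceptor genes were called by edgeR, with medians of −0.05 and 0.07, which ran from −0.09 to 0.05 and from −0.02 to 0.18 over the alternatives. Each list had 1 gene at an unadjusted p under 0.05, and DESeq2 called 0 in either. Of all genes tested, edgeR called 0.0213% and DESeq2 2.64%, and 16.1% had an unadjusted p under 0.05. *Acvrl1*, an endothelial type I receptor that signals through the same Smads as BMP receptors, had 11.2, 13.1 and 14.4 CPM under the wildtype label and 15.2, 16.6 and 17.3 CPM under the mutant label. Its labels did not overlap (0.35, adjusted p = 0.249, edgeR's quasi-likelihood F-test, Benjamini-Hochberg adjusted), while *Tgfbr3* was at −0.90 with overlapping labels. Of 7 BMP ligands edgeR called 0 and DESeq2 2, and the 4 at an unadjusted p under 0.05 lay in both directions around a median of −0.01 (−0.14 to 0.18 over the alternatives). *Bmp6* was at 0.89 and *Bmp2* at 0.63, *Bmp5* was at −0.73 and *Bmp7* at −0.49. The 5 TGF-β and activin ligands had a median of 0.23, which was −0.07 with the myocardial covariate and moved to 0.64 when wildtype replicate 1 was left out and to 0.09 when wildtype replicate 3 was, with 1 gene at an unadjusted p under 0.05 and 0 called by edgeR or DESeq2.

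Among 12 Smad corepressors and coactivators, 10 had a positive log2 fold change, with a median of 0.17 (0.05 to 0.27 over the alternatives, with 0.10 without wildtype replicate 2 and with GC and length corrected). edgeR called 0 and DESeq2 1 of them, and 3 had an unadjusted p under 0.05. Over all genes these shares were 0.0213%, 2.64% and 16.1%, and 51.2% had a positive log2 fold change. *Zfp423*, a zinc finger partner of the BMP-activated Smads, had 18.2, 17.6 and 13.2 CPM under the wildtype label and 26.9, 29.2 and 21.3 CPM under the mutant label. Like *Smad6* and *Smad7* it had no overlap and its lowest library of each label was replicate 3 (0.66, adjusted p = 0.181, edgeR's quasi-likelihood F-test, Benjamini-Hochberg adjusted). The Smad ubiquitin ligases, phosphatases and anchors, 15 genes, had a median of 0.04 (−0.05 to 0.15 over the alternatives), with 2 at an unadjusted p under 0.05 and 0 called by edgeR or DESeq2. *Pmepa1*, a TGF-β-induced inhibitor of receptor-activated Smads, was at 0.50 with no overlap.

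Beside *Id1*, *Id2* and *Id3*, a list of 12 other BMP response genes was read, of which 11 had a positive log2 fold change (median 0.38). edgeR called 0 and DESeq2 2 of them, and 6 had an unadjusted p under 0.05. Among all genes 51.2% had a positive log2 fold change and 16.1% an unadjusted p under 0.05. edgeR called 0.0213% of all genes and DESeq2 2.64%. *Atoh8* had 13.1, 15.4 and 13.1 CPM under the wildtype label and 22.2, 23.1 and 20.8 CPM under the mutant label. Its libraries were tighter within each label than those of *Id1* or *Id3* (0.67, adjusted p = 0.128, edgeR's quasi-likelihood F-test, Benjamini-Hochberg adjusted). *Nkx2-5*, a myocardial gene as well, was the exception at −0.45. With the myocardial covariate the median of these 12 genes was 0.16, and it was 0.58 without wildtype replicate 1 and 0.22 without wildtype replicate 3. The other TGF-β response genes, 12 genes, had a median of 0.47, 0 calls by edgeR, 3 by DESeq2 and 7 genes at an unadjusted p under 0.05, with *Ltbp2* at 1.41 and *Tgm2* at −0.49. Of the 3 genes called by DESeq2 2 were higher and 1, *Tgm2*, was lower. *Col1a1*, which DESeq2 called, and *Postn* stand in the mesenchymal list as well. The median of these TGF-β response genes was 0.18 with the myocardial covariate and 0.78 without wildtype replicate 1.

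Downstream of the Id proteins, the E protein genes *Tcf3* (0.29), *Tcf12* (0.36) and *Tcf4* (0.15) were all higher in mean under the mutant label, with overlapping labels, 1 gene at an unadjusted p under 0.05 and 0 called by edgeR or DESeq2. For this list and the next, the shares over all genes were 16.1% at that unadjusted p, 0.0213% called by edgeR and 2.64% by DESeq2. The 12 basic helix-loop-helix factors of the OFT had a median of 0.33, 0 calls by edgeR, 1 by DESeq2 and 5 genes at an unadjusted p under 0.05, with *Scx* at 0.72 and *Hey2* at −0.41. With the myocardial covariate these medians were 0.08 for the E proteins (0.13 with GC and length corrected) and 0.09 for the basic helix-loop-helix factors. The family genes outside the 10, *Smad9* (0.47) and *Id4* (0.45), had overlapping labels, and their median of 0.46 was 0.14 with the covariate, and leaving out wildtype replicate 1 moved it to 0.80 and wildtype replicate 3 to 0.20. *Smad9*, a further BMP-activated Smad, had 21.3, 12.1 and 7.43 CPM under the wildtype label and 19.5, 20.1 and 17.1 CPM under the mutant label, so its wildtype libraries were spread more widely than those of *Smad1* or *Smad5*.

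Promoter windows of 300 bases, 250 before and 50 after the annotated start, came from RefSeq (GRCm38.p6, the assembly of mm10) and were found for 6 of the 10 genes, with 8 windows in all. For *Id2* and *Id3* this start lies further inside the gene than the outer end of the span given above from GENCODE, so their windows fall within that span. They are shown for *Smad6* and *Id3*, whose patterns over the libraries were alike, and for *Id2*, whose pattern was less like theirs. The letters searched on both strands were GGCGCC, in 11.9% of 32851 promoter windows, GTCTAGAC, in 0.213%, and GTCT, in 88%, the last being contained in GTCTAGAC on either strand. GTCTAGAC was found in the *Smad6* window at position 247, across the annotated start, and in none of the other 7 windows. *Smad2*, *Smad4*, *Smad7* and *Id1* had no window and were not searched, so it is not known here whether they hold these letters. GGCGCC was found in the *Id2* window at position 20 and in 2 of 3 *Smad5* windows, which overlap and hold the same single match. GTCT matched at 3 places in the *Id3* window, at 1 in *Id2*, at 1 in *Smad3*, at 2 in *Smad6*, both inside GTCTAGAC, at 0 in *Smad1*, and in *Smad5* at 1 place shared by the overlapping windows and at 2 in the other window. A match describes the letters only and is not a binding site. Capitals mark GTCTAGAC or GGCGCC, the *Id3* window has neither, and the windows are chr9:64022010-64022309 (minus strand), chr4:136143572-136143871 (plus strand) and chr12:25096043-25096342 (minus strand) in the order shown.
Smad6: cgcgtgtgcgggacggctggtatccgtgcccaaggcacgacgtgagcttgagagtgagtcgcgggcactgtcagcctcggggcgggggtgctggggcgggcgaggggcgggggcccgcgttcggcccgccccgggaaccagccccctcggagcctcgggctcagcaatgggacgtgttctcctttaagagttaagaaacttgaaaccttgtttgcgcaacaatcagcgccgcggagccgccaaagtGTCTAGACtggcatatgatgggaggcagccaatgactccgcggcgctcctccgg
Id3: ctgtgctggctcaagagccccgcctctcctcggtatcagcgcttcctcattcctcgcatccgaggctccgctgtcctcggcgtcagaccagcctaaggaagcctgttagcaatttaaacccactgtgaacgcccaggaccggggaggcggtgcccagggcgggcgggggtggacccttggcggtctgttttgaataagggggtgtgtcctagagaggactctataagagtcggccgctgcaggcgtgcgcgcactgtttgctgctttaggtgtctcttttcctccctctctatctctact
Id2: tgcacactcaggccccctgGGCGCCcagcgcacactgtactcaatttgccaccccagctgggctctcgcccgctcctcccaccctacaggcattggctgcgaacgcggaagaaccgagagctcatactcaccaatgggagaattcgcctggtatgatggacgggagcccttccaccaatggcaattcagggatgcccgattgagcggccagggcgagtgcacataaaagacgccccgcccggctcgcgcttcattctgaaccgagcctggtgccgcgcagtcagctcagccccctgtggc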

How the data were processed

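Bulk RNA-Seq counts of E13.5 OFT were analysed in 6 libraries, 3 under each label. The authors aligned paired-end reads to mm10 with TopHat2 2.1.0 and counted reads on exons, and the deposited values are whole counts per gene without normalization. Annotation release, counting mode and use of strand are not given in the sources used here. Titles and descriptions give opposite library numbers for wildtype replicates 2 and 3, so these numbers, taken here from the titles, are uncertain.

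The 620 genes with no more than 5 reads in total were dropped. The other 28157 were scaled by TMM and tested for the label by the quasi-likelihood F-test of edgeR 4.0.16 (R 4.3.3), Benjamini-Hochberg adjusted over all of them, with a threshold of 0.05. The code was tested on simulated counts. The alternatives were DESeq2 1.42.0, limma-voom (limma 3.58.1), RLE scaling, library size only, no filter, filterByExpr, replicate blocks, correction for GC content and length, a myocardial covariate and each library left out. Positions and lengths came from GENCODE M21, which holds 28723 of 28777 identifiers. Members and lists were chosen with earlier results of these data known. Named list genes are among the 4 with the smallest unadjusted p of each list (mean of 1 CPM or more), or a marker list's most abundant gene; *Nkx2-5* was named after its value was seen. Of the mesenchymal markers, *Postn*, *Col1a1* and *Twist1* also stand in other lists. p-values measure the spread between pooled libraries.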

Additional observations from a re-analysis of the deposited data

How the results depend on the processing

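Over the 17 alternative settings *Smad1*, *Smad4*, *Smad5*, *Smad6*, *Smad7*, *Id1* and *Id3* kept their direction, *Smad4* between 0.07 and 0.23. *Smad3* was 0.07 with scaling by library size only and 0.11 with the myocardial covariate, and from −0.10 to 0.04 with 1 library left out. *Smad2* was from −0.0034 to 0.14 with 1 library left out, and *Id2* was −0.13 with the covariate. The number of Smad and Id genes without overlap was 4 with GC and length correction and 6 with scaling by library size only. With 1 library left out it ran from 5 to 7. The causes were not tested.

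edgeR called 6 genes with all libraries and from 1 to 2593 with 1 library left out, and DESeq2's Wald test called 742. Of the Smad and Id genes, 0 were called by edgeR (5 at an unadjusted p under 0.05, beside 16.1% of all genes), 2 by DESeq2 and from 0 to 3 with 1 library left out. With a replicate block on the title numbers edgeR called 1577 genes (5.6%), among them 4 of the 10, *Smad6*, *Smad7*, *Id1* and *Id3*. Adding a GC and length correction to that block gave 2144 genes (7.61%), with the same 4 of the 10. *Nos3* was called with each of these and with the block on the description numbers (adjusted p = 0.0125). A block on the description numbers called 83 genes and 0 of the 10, of which 4 had an unadjusted p under 0.05, beside 13% of all genes. Deviations of same-numbered libraries correlated at 0.096, 0.159 and 0.42 by title and at 0.096, −0.441 and −0.121 by description over 16655 genes. The value for number 1 did not pass 0.1, and not every library correlated best with its own number, so the libraries were not treated as paired.

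Every Smad and Id gene had at least 685 reads in each library, and the number of libraries, 3 per label, limits how narrow the intervals can be. No other call of a Smad or Id gene changed in the settings run.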
